A study of Saccharomyces cerevisiae with 2 samples.

Results

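Cryptic Unstable Transcripts (CUTs) of lower abundance were analysed in 2 RNA-seq libraries of *S. cerevisiae*, 1 from *xrn1*∆ *trf4*∆ and 1 from *trf4*∆. They were selected on the values of these libraries: a CUT belongs to the group when the geometric mean of its 2 read densities is below 0.2 reads per nucleotide. This holds for 470 of the 925 CUTs and of the 9633 transcripts listed in all. The other 455 CUTs are called CUTs of higher abundance here. Both strains are BY4741 and were grown exponentially and asynchronously in YPD. The *xrn1*∆ *trf4*∆ strain lacks the cytoplasmic 5′–3′ exoribonuclease Xrn1p and the poly(A) polymerase Trf4p, while the *trf4*∆ strain lacks Trf4p only. The deletion of *TRF4* is thus shared, and the comparison concerns the further loss of Xrn1p in cells that already lack Trf4p. One culture of each strain was sequenced, so no difference below has a replicate check and no test between the strains was possible. Every direction below is that of 1 library relative to another.

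CUTs are short, non-coding RNA polymerase II transcripts that are hardly seen in wild type yeast. Their transcription typically ends through the Nrd1–Nab3–Sen1 complex, after which the TRAMP complex, of which Trf4p is a subunit, adds a short poly(A) tail and hands the RNA to the nuclear exosome with its subunit Rrp6p. RNAs that leave the nucleus can be decapped and then degraded from the 5′ end by Xrn1p, the enzyme that defines the XUTs (Xrn1p-sensitive Unstable Transcripts). SUTs (Stable Unannotated Transcripts) are non-coding transcripts that are also seen in wild type cells. CUT identifiers carry no position in the table, so genome coordinates and sequences are not given here.

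Removal of Xrn1p from *trf4*∆ cells went with no common shift of these CUTs under the authors' normalization, but the single CUTs lay far apart. Of the 460 members with reads in both libraries, 106 (23.0%) were at least 2-fold higher in *xrn1*∆ *trf4*∆ and 100 (21.7%) at least 2-fold lower, while 254 (55.2%) differed by less than 2-fold. Over all 9423 transcripts with reads in both libraries, 40.5% were at least 2-fold higher and 6.53% at least 2-fold lower. CUT459, CUT445 and CUT355 were among the members with the highest ratios, and CUT034, CUT178 and CUT271 among those with the lowest.

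The members lay low in both libraries, as the selection sets. Their median density was 0.0858 reads per nucleotide in *xrn1*∆ *trf4*∆ and 0.0819 in *trf4*∆, below that of 89.9% of ORFs in *xrn1*∆ *trf4*∆ and of 81.0% in *trf4*∆. Densities ranged up to 0.574 (CUT459) in *xrn1*∆ *trf4*∆ and up to 0.545 (CUT034) in *trf4*∆. In all, 48 members exceeded 0.2 in *xrn1*∆ *trf4*∆ and 53 in *trf4*∆. No member did so in both libraries, which the rule does not allow. The limit falls within a continuous range of CUT densities. The 3 members just inside it had geometric means of 0.1999 (CUT897), 0.1995 (CUT633) and 0.1983 (CUT213), and the 3 CUTs just outside it 0.2004 (CUT778), 0.2009 (CUT080) and 0.2017 (CUT568). CUT897 had densities of 0.159 in *xrn1*∆ *trf4*∆ and 0.251 in *trf4*∆, against 0.218 and 0.184 for CUT778 in the same order of strains. CUT568, just outside the limit, had a log2 ratio of -1.78, further from 0 than any of the 3 members just inside it.

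**Figure D1:**
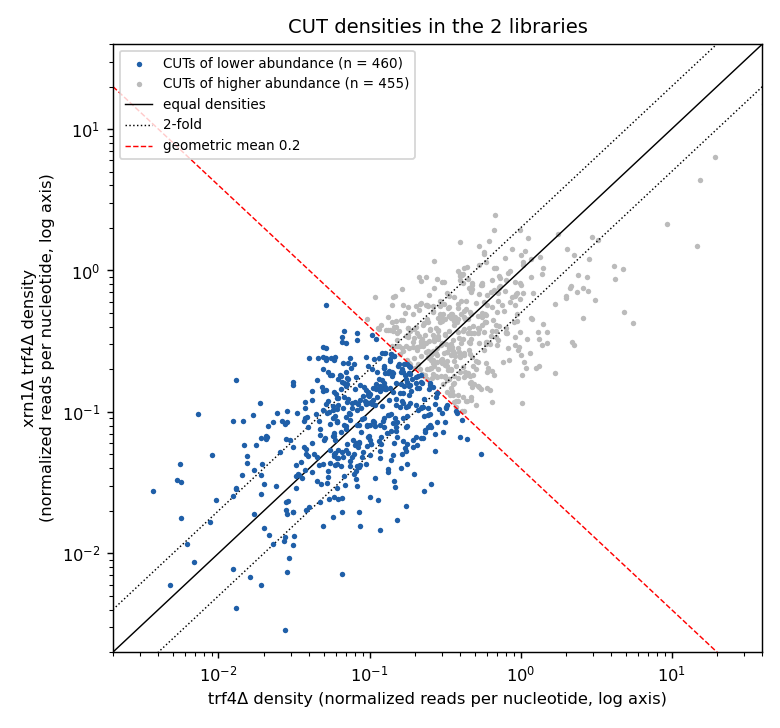
Read density of each CUT in *xrn1*∆ *trf4*∆ (vertical) against *trf4*∆ (horizontal), in normalized reads per nucleotide on log axes. Blue points are the 460 CUTs of lower abundance with reads in both libraries, grey points the 455 CUTs of higher abundance, and the dashed line marks a geometric mean of 0.2. Of the blue points 106 lie on or above the upper 2-fold line and 100 on or below the lower one.

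The number of reads behind these densities was recovered from the values themselves. A density is a whole number of reads divided by the transcript's length, with 1 read worth 0.626 reads in *xrn1*∆ *trf4*∆ after the authors' scaling and 1 in *trf4*∆. The smallest length and reads that give both densities were found for all 468 members with any reads. These are lower bounds, since a common factor cannot be seen. For ORFs under the same density limit the method gave the length in the R64 assembly for 1300 of 1665 (78.1%). For 431 of the 460 members (93.7%) the recovered length was 1 more than a multiple of 8, against 14.4% of those ORFs. The median recovered length was 337 nt, with a range of 19 to 2449 nt. The members had a median of 45.5 reads in *xrn1*∆ *trf4*∆ and 31 in *trf4*∆. In total they held 34469 reads in *xrn1*∆ *trf4*∆ and 20507 in *trf4*∆. There were 377 members with at least 30 reads over both libraries, 21 with fewer than 10 and 38 with 3 reads or fewer in a library.

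The log2 ratio, always of the *xrn1*∆ *trf4*∆ over the *trf4*∆ density, had a median of 0.07 over the 460 members (95% binomial interval of the median -0.16 to 0.22), with quartiles of -0.85 and 0.88. Such an interval of a median describes the members in these 2 libraries. It covers neither the spread between cultures nor the choice of scale. In all, 235 members (51.1%) were higher in *xrn1*∆ *trf4*∆, against 86.1% of SUTs, 87.3% of XUTs and 87.1% of ORFs under the same density limit. Among the 377 members with at least 30 reads the median was 0.09, and the central 90% of ratios ran from -1.96 to 2.12. The 377 members include 79 (21.0%) at least 2-fold higher and 84 (22.3%) at least 2-fold lower. The shares of other classes with as many reads are given below.

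Counting error was set against each ratio by way of the exact binomial (Clopper-Pearson) 95% interval of the reads' share in 1 library, for the 422 members with more than 3 reads in each library. This interval says nothing of the spread between cultures. It lay above 0 for 106 members (25.1%) and below 0 for 115 (27.3%), and held 0 for 201. Over all 9088 transcripts with such an interval it lay above 0 for 66.8% and below 0 for 15.1%. The median width of the members' intervals was 1.39 on the log2 scale, and for the 201 members whose interval held 0 a difference was not detectable at this depth. The whole interval lay above 1 for 30 members (7.11%) and below -1 for 34 (8.06%), where it did so for 25.8% and 3.97% of the 9088 transcripts.

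These directions depend on the scale chosen for the 2 libraries. When the median ORF is given the same density in both, here called the ORF-median scale, all log2 ratios move by -0.94, which brings the members' median to -0.88 and leaves 107 members (23.3%) higher in *xrn1*∆ *trf4*∆. Then 33 members were at least 2-fold higher and 218 at least 2-fold lower, against 947 and 1982 of all 9423 transcripts on the same scale. A 30% trimmed mean of the ORF ratios, which moves the ratios by -0.78, gave 39 and 203 members, where 13.7% and 17.4% of all transcripts were as far apart. Equal sums of ORF densities, with a shift of -0.08, gave 98 and 106 members, beside 37.2% and 7.11% of all transcripts. Under each of the 4 scales the share of members at least 2-fold lower exceeded that of all transcripts, and the share at least 2-fold higher was smaller. Differences between the median log2 ratios of RNA classes do not depend on the scale, whereas shares past 2-fold do.

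Compared with other transcripts under the same density limit, the members lay lower. The median log2 ratio was 1.15 for 538 SUTs, 1.16 for 1206 XUTs and 1.04 for 1669 ORFs with a geometric mean under 0.2. The members' median was 1.08 below that of SUTs, 1.097 below that of XUTs and 0.97 below that of ORFs. XUTs are chosen by a higher level without Xrn1p, so their median is not independent evidence of its direction. Of the CUTs of lower abundance, 83 (18.0%) reached the XUT median, and the counting interval lay wholly below it for 276 of 422 (65.4%) and wholly above it for 21. XUTs themselves lie on both sides of their median by definition. These interval counts were not made for other classes, so they have no background here.

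The distribution was wider than that of SUTs, XUTs and ORFs, and close to that of the CUTs of higher abundance. Among transcripts with at least 30 reads, the distance between the quartiles of the log2 ratio was 1.60 for the members, 1.58 for the CUTs of higher abundance, 1.39 for SUTs, 1.27 for XUTs and 1.04 for ORFs under the limit. Both tails differed. At least 2-fold lower in *xrn1*∆ *trf4*∆ were 22.3% of these members, against 2.11% of SUTs, 1.2% of XUTs and 1.96% of ORFs. At least 2-fold higher were 21.0% of members, against 56.2%, 58.6% and 54.5% of those classes. Among all transcripts with reads in both libraries, not only those with at least 30, the members had a median of 82.5 reads. The median was 165.5 for SUTs, 130.5 for XUTs and 310.0 for ORFs under the limit, and 446 for the CUTs of higher abundance. The part of counting error in the wider spread was not tested.

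**Figure D2:**
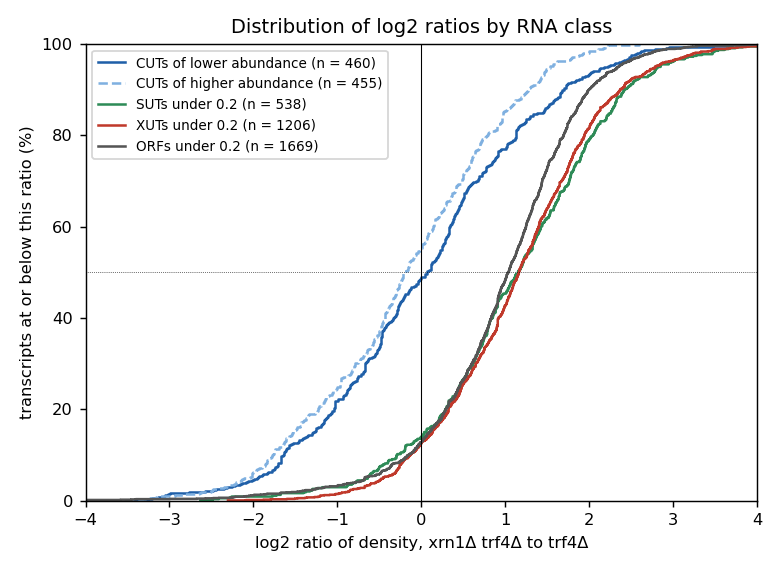
Cumulative share of transcripts (vertical, in percent) at or below each log2 ratio, *xrn1*∆ *trf4*∆ over *trf4*∆ (horizontal). The curve of the CUTs of lower abundance crosses 50% near 0 (median 0.07) and that of the CUTs of higher abundance at -0.22, while SUTs, XUTs and ORFs with a geometric mean under 0.2 cross it at 1.15, 1.16 and 1.04.

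With CUTs split by the geometric mean, the medians of both CUT groups lay nearer to each other than to those of the other classes under the limit. The median log2 ratio was 0.07 for the 460 members and -0.22 (-0.31 to -0.04) for the 455 CUTs of higher abundance, a difference of 0.28. The CUTs of higher abundance held 14.7% at least 2-fold higher and 24.8% at least 2-fold lower in *xrn1*∆ *trf4*∆. The difference between both groups depends on the value that splits the CUTs. It was 0.80 when they were split at 0.2 by the *trf4*∆ density alone and -0.60 when they were split by the *xrn1*∆ *trf4*∆ density alone, as each such split takes CUTs that are low in the library it uses. No difference in ratio between both groups is therefore read from these data.

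Within the members the median ratio showed no order with density. It was 0.13 in the 27 members with a geometric mean under 0.02, 0.12 in 81 members between 0.02 and 0.05, -0.21 in 148 members between 0.05 and 0.1 and 0.17 in 204 members between 0.1 and 0.2. Under the authors' normalization each of these medians has a 95% interval over the members that holds 0. Such intervals describe the members in these libraries and do not test a difference between the strains. The density groups also rest on the same values as the selection. The members under 0.02 rest on a median of 9 reads and span quartiles 2.34 apart, against 1.62 between 0.1 and 0.2. In every one of these density groups the median of the members lay below those of SUTs, XUTs and ORFs. In the group under 0.02 the ORF median of 0.55 and the SUT median of 0.91 lay within the members' interval (-1.16 to 1.13). The XUT median of 1.46 lay above it.

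**Figure D3:**
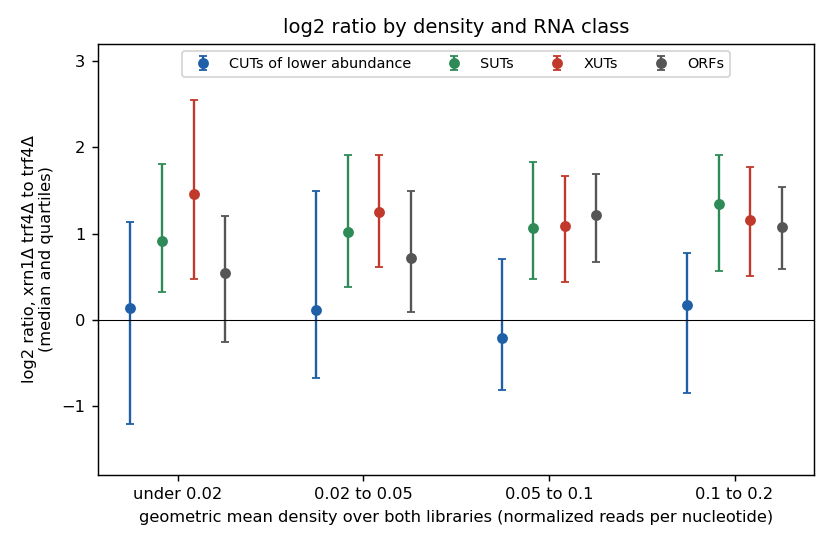
Medians (points) and quartiles (bars) of the log2 ratio, *xrn1*∆ *trf4*∆ over *trf4*∆, in 4 groups of geometric mean density for CUTs of lower abundance, SUTs, XUTs and ORFs. The median of the CUTs lies between -0.21 and 0.17 in all 4 groups, below the 3 other classes.

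Members of medium length had the lowest ratios. The median was 0.26 (-0.16 to 0.51) for 191 members with a recovered length under 300 nt, -0.34 (-0.49 to -0.14) for 149 members of 300 to 500 nt and 0.23 (-0.0039 to 0.36) for 120 members over 500 nt. At least 2-fold lower in *xrn1*∆ *trf4*∆ were 47 of the members of 300 to 500 nt (31.5%), against 40 of those under 300 nt (20.9%) and 13 of those over 500 nt (10.8%). In CUTs of higher abundance the median was instead lowest under 300 nt, at -0.49 for 144 CUTs, followed by -0.24 for 155 CUTs of 300 to 500 nt and 0.14 for 156 CUTs over 500 nt. In both groups of CUTs the share at least 2-fold lower was smallest over 500 nt (14.7% in CUTs of higher abundance). Length moves with reads, since members under 300 nt had a median of 38 reads and those over 500 nt of 225. The part of depth in this order was not tested.

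**Figure D4:**
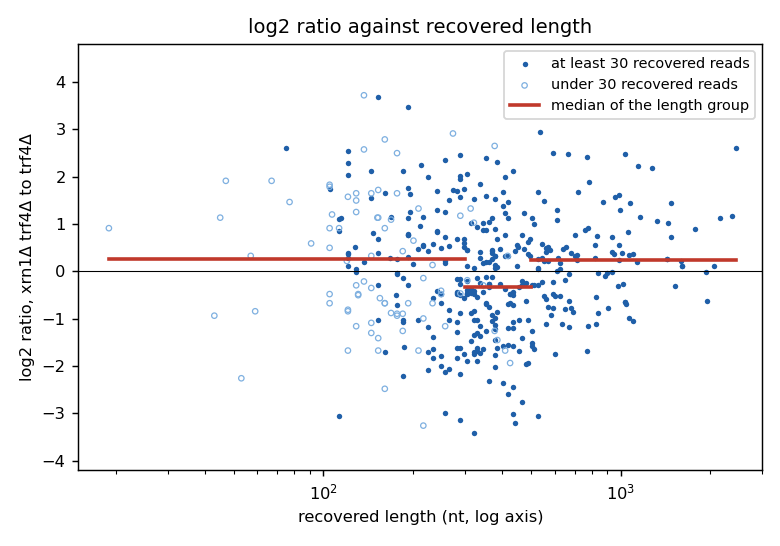
Log2 ratio, *xrn1*∆ *trf4*∆ over *trf4*∆ (vertical), against recovered length in nt (horizontal, log axis) for the 460 CUTs of lower abundance with reads in both libraries. Filled points have at least 30 reads, open points fewer, and the red lines are the medians of the 3 length groups, 0.26, -0.34 and 0.23.

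Among members with at least 30 reads, the highest ratio was that of CUT709, with densities of 0.168 in *xrn1*∆ *trf4*∆ and 0.0131 in *trf4*∆. It rests on 41 reads in *xrn1*∆ *trf4*∆ and 2 in *trf4*∆, which gives a log2 ratio of 3.68 with a wide counting interval (1.74 to 6.78). CUT459 followed, with 177 reads and a density of 0.574 in *xrn1*∆ *trf4*∆, against 10 reads and 0.0518 in *trf4*∆. Its log2 ratio was 3.47 (2.56 to 4.56), an 11.1-fold difference, and its *xrn1*∆ *trf4*∆ density was the highest of all members. CUT445 and CUT355 are the best covered of this group. CUT445, the longest member with a recovered length of 2449 nt, had 449 reads in *xrn1*∆ *trf4*∆ and 46 in *trf4*∆ and a log2 ratio of 2.61 (2.17 to 3.08). For CUT355, with 620 and 70 reads in the same order, it was 2.47 (2.11 to 2.85). CUT426 had 90 and 10 reads and a log2 ratio of 2.49 (1.55 to 3.60), and CUT743 had 56 and 6 reads and 2.55 (1.34 to 4.05). CUT757 and CUT887 had 3 reads each in *trf4*∆, with 37 and 29 reads in *xrn1*∆ *trf4*∆, and log2 ratios of 2.95 (1.29 to 5.29) and 2.60 (0.91 to 4.96). On the ORF-median scale these 8 ratios lay between 1.53 and 2.74, and the interval of CUT887 then holds 0.

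The lowest ratio was that of CUT034, the member with the highest *trf4*∆ density. It had 26 reads and a density of 0.0507 in *xrn1*∆ *trf4*∆, against 175 reads and 0.545 in *trf4*∆, a log2 ratio of -3.43 (-4.08 to -2.83). CUT033, which carries the preceding number, was also among the lowest, with 8 reads in *xrn1*∆ *trf4*∆ and 44 in *trf4*∆ and a log2 ratio of -3.13 (-4.43 to -2.03). Whether the 2 lie next to each other in the genome is not stated in the table. CUT271 had 48 reads in *xrn1*∆ *trf4*∆ and 205 in *trf4*∆, with a log2 ratio of -2.77 (-3.25 to -2.31). CUT178 had 26 and 136 reads and -3.06 (-3.73 to -2.45), and CUT643 had 15 and 76 reads and -3.02 (-3.92 to -2.20). The 3 others rest on 5 or 6 reads in *xrn1*∆ *trf4*∆. These were CUT715 with -3.21 (-4.94 to -1.83), CUT338 with -3.05 (-4.79 to -1.65) and CUT421 with -2.997 (-4.55 to -1.71). All 8 intervals lie below -1. Both extremes are about equally far from 0 under the authors' normalization, and 30 members were at least 4-fold higher in *xrn1*∆ *trf4*∆ and 21 at least 4-fold lower, where 8.98% and 1.77% of all 9423 transcripts were. On the ORF-median scale these counts were 4 and 90, against 1.12% and 6.22% of all transcripts.

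**Figure D5:**
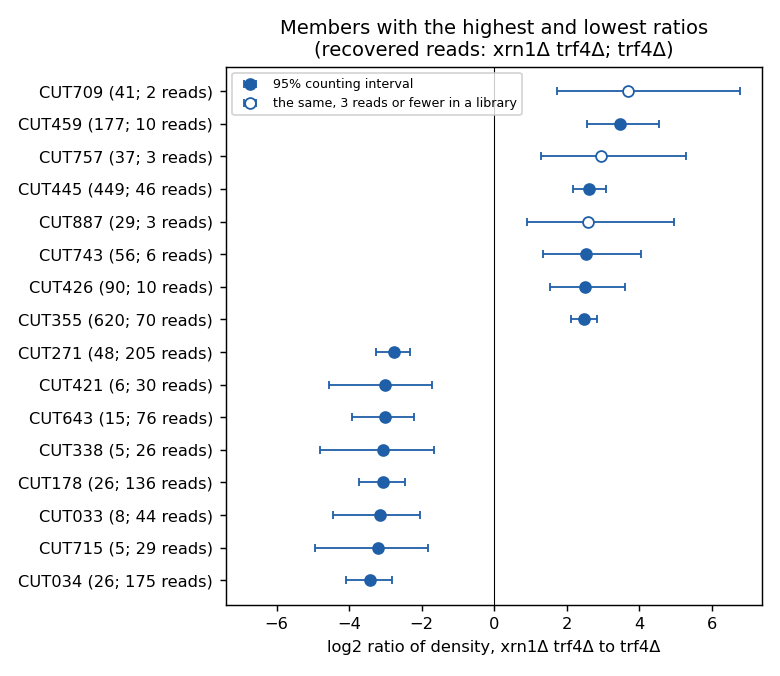
Log2 ratio, *xrn1*∆ *trf4*∆ over *trf4*∆ (horizontal), for the 8 highest and the 8 lowest members with at least 30 recovered reads, with exact 95% counting intervals as bars and reads in *xrn1*∆ *trf4*∆ and then *trf4*∆ beside each name. The highest are led by CUT709 (3.68) and CUT459 (3.47) and the lowest by CUT034 (-3.43), and no interval reaches 0.

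The members with most reads were CUT784 (549 reads in *xrn1*∆ *trf4*∆ and 154 in *trf4*∆), CUT355 (above) and CUT775 (505 and 152 reads). CUT784 had densities of 0.145 in *xrn1*∆ *trf4*∆ and 0.0648 in *trf4*∆, with a log2 ratio of 1.16 (0.90 to 1.43), and CUT775 densities of 0.239 and 0.115, with 1.06 (0.79 to 1.33). Both are long, at 2377 and 1321 nt, and both ratios are close to the XUT median. On the ORF-median scale they came to 0.21 and 0.11, and their intervals then hold 0. Near the median of the members, both libraries gave almost the same density. CUT776 had 90 reads in *xrn1*∆ *trf4*∆ and 53 in *trf4*∆, with densities of 0.146 and 0.138 and a log2 ratio of 0.09 (-0.42 to 0.61). CUT059 had densities of 0.181 in *xrn1*∆ *trf4*∆ and 0.172 in *trf4*∆ and a log2 ratio of 0.07 (-0.39 to 0.54).

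Of the members, 10 are listed at 0 in at least one library. CUT224 and CUT230 had no reads in either. The other 8 had reads in *xrn1*∆ *trf4*∆ and 0 in *trf4*∆, and no member was at 0 in *xrn1*∆ *trf4*∆ only. Other classes under the same density limit were also at 0 mostly in *trf4*∆. There 10 of 558 SUTs, 11 of 1217 XUTs and 28 of 1806 ORFs were at 0 in *trf4*∆ only. At 0 in *xrn1*∆ *trf4*∆ only were 1 SUT, 0 XUTs and 12 ORFs. The *xrn1*∆ *trf4*∆ library held more reads on the members, and the part of depth in the count of 8 members was not tested. CUT326 had at least 41 reads and a density of 0.187 in *xrn1*∆ *trf4*∆. That density is 8.56-fold the level that 3 reads would give in *trf4*∆, taken as the upper limit for a count of 0. The same figure was 6.05-fold for CUT569 (29 reads), 4.38-fold for CUT161 (21 reads), 3.34-fold for CUT003 (16 reads) and 2.09-fold for CUT851 (10 reads). CUT553, CUT552 and CUT008 had 9, 7 and 6 reads, and their figures of 1.88-fold, 1.46-fold and 1.25-fold fall short of 2-fold. These figures allow for counting error in *trf4*∆ only. They take the *xrn1*∆ *trf4*∆ count as exact, so they are not lower limits of the difference. They carry the authors' scale, and the ORF-median scale moves each of them by -0.94 on the log2 scale.

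One member shares its values with another entry. CUT127 and SUT401 had the same densities, 0.0648 in *xrn1*∆ *trf4*∆ and 0.0207 in *trf4*∆, which rest on 15 reads in *xrn1*∆ *trf4*∆ and 3 in *trf4*∆. Whether these are the same reads is not stated, so they are not taken as separate observations. The paper shows the RNA-seq signal of subtelomeric regions by strand. Its methods do not tell if the reads of the transcripts listed here were counted by strand. The values of members that overlap another transcript are therefore uncertain.

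The mRNAs of 20 factors listed for nuclear or cytoplasmic RNA decay were examined in the same libraries. The deletions appear as labelled, since *PAP2* (*TRF4*, YOL115W) had 1 read in *xrn1*∆ *trf4*∆ and 0 in *trf4*∆, and *XRN1* (YGL173C) had a density in *xrn1*∆ *trf4*∆ of 0.956% of that in *trf4*∆. Of the other 18 genes, 6 were at least 2-fold higher in *xrn1*∆ *trf4*∆ and 0 at least 2-fold lower, where 2262 of 5638 ORFs were at least 2-fold higher and 148 at least 2-fold lower. Their median log2 ratio was 0.55, against 0.78 for all these ORFs. The 6 were *AIR1* (1.85) and *AIR2* (1.87), the RNA-binding subunits of TRAMP, *TRF5* (1.01), the paralog of *TRF4*, *RRP40* (1.12), a subunit of the exosome core, and the decapping genes *DCP1* (1.27) and *DCP2* (1.23), all as log2 ratios. The mRNA of *MTR4*, the TRAMP helicase, was the only one of the 18 below 0, with a log2 ratio of -0.49. On the ORF-median scale none of the 18 was at least 2-fold higher, and *MTR4*, at -1.43, was the 1 gene at least 2-fold lower, where 420 of the 5638 ORFs were at least 2-fold higher and 913 at least 2-fold lower.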

How the data were processed

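RNA-seq read densities of 1 *xrn1*∆ *trf4*∆ and 1 *trf4*∆ culture were used. Ribosomal RNA was depleted from total RNA, and 50 nt reads were obtained on a SOLiD sequencer. The authors aligned them to the S288c genome with Bowtie 0.12.7 (3 mismatches allowed) and kept unique positions. SAMtools is also named in the submitters' processing notes. The values the authors deposited are a coverage signal, in reads per nucleotide of each transcript, scaled by the authors to the sum of ORF reads. The genome release, the CUT annotation and the use of strand are not given in the sources used here. Both value columns were used.

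Reads and lengths were recovered as the smallest whole numbers giving both densities (denominators up to 20000, relative tolerance 1e-09). Log2 ratios carry no pseudocount. With 1 library per strain no test across transcripts was run. Counting intervals are exact (Clopper-Pearson, 95%) and cover counting error only. Members and lists were chosen with earlier results of these data known. Named members were the 8 highest and 8 lowest ratios among those with at least 30 reads, the 3 CUTs on either side of the limit, the members at 0, the 3 with most reads and the 2 nearest the median. Alternatives were pseudocounts, 3 scales, read minimums and other limits. The functions were tested on simulated data. Calculations used SciPy 1.17.1 and pandas 2.3.3 with NumPy 2.4.6 under Python 3.11.15, and plots matplotlib 3.10.9. Gene names come from the R64 assembly.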

Additional observations from a re-analysis of the deposited data

How the results depend on the processing

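With 1 library per strain a median counts as changed when it left the 95% binomial interval of its main value. A count does so when it moved by over 1.5 times. Neither limit measures the spread between cultures. Of 86 values under alternatives, 53 stayed within these limits. Of 60 such values of single named members, also chosen after seeing the data, 33 stayed within their counting interval. These were 19 under a pseudocount of 0.01, 6 on the ORF-median scale and 8 under the trimmed mean. Each scale moves every ratio by a fixed amount, so members with few reads and wide intervals stay within them more readily. The tally is therefore no measure of how firm a ratio is.

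On the ORF-median scale, the members' median log2 ratio was -0.88 (main 0.07). It was then -0.83, -1.15 and -0.78 at densities of 0.02 to 0.05, 0.05 to 0.1 and 0.1 to 0.2, and -0.68, -1.29 and -0.71 for lengths under 300 nt, 300 to 500 nt and over 500 nt. SUTs, XUTs and ORFs under the limit came to 0.21, 0.22 and 0.092. Members at least 2-fold higher and lower were 33 and 218 (main 106 and 100), counting intervals above and below 0 were 31 and 241 (main 106 and 115), and 2 decay genes were 2-fold apart (main 7, *XRN1* included). Of the 106 members with an interval above 0, 29 then had a ratio below 0, and 5 an interval below 0. The trimmed mean gave a median of -0.72, 39 and 203 members, and 43 and 221 intervals. Interval counts over all transcripts were not made on either of these scales. Whether the members' interval counts there differ from those of other transcripts was therefore not tested.

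A pseudocount of 0.1, above the typical density of the members, left 24 members at least 2-fold higher and 20 lower. A pseudocount of 0.01 moved SUTs, XUTs and ORFs to 0.91, 0.99 and 0.81. A limit of 0.1 gave 63 and 55 members, since fewer CUTs are counted, and a limit of 0.4 gave 146 higher and 151 lower. Selection by the *trf4*∆ density alone gave a median of 0.36 with 138 members at least 2-fold higher and 61 lower, and selection by the *xrn1*∆ *trf4*∆ density alone a median of -0.41 with 75 higher and 145 lower. The difference from CUTs of higher abundance was then 0.80 and -0.60. Lengths restricted to 1 more than a multiple of 8, an alternative chosen after seeing the data, changed none of the medians by length or interval counts beyond these limits. No paired analysis was possible because each strain has 1 library.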
